A study of Danio rerio with 2 samples.

Results

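The genes described here are listed genes of the cell division cycle, 17 of DNA synthesis (S genes) and 27 of the G2 phase and mitosis (G2/M genes), followed over 8 cell populations of the zebrafish embryo. They were listed by name, and 36 of the 44 were matched to the 27931 genes of the expression table. The matched genes are 13 S genes and 23 G2/M genes. mcm2, mcm7, ccne2 and slbp among the S genes, and cdc20, bub1b, birc5a and ube2c among the G2/M genes, had no match and have no values here. A gene listed as BIRC5 in the table of names, detected in 23 cells, was not counted as birc5a. The cells came from untreated embryos of the line Tg(-2.3 etv2:GFP)zf372, in which GFP is under the control of the etv2 promoter; etv2 encodes an ETS factor that vascular and blood precursors need. GFP-positive cells were sorted from pooled embryos at 15-18 somites and at 20 somites, and polyadenylated RNA of 48 single cells per stage was sequenced after capture on a Fluidigm C1 chip, which holds each cell in its own chamber. Each stage was 1 sample with its own chip and its own date in the sample title. Stage, date and chip thus cannot be told apart, and cells are not replicates. Every difference is therefore a description of these 96 cells, given without a p-value.

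A dividing cell first copies its DNA and then separates the copies. The S genes encode the helicase, sliding clamp, ligases and nucleotide enzymes that copying needs, and their transcripts are known to build up from late G1 into S phase. The G2/M genes encode the mitotic kinases, their cyclins, and the spindle, kinetochore and cytokinesis proteins, and their transcripts are known to peak later, as cells approach division. Cells that have left the cycle are known to hold little of either group. DNA content was not measured, so the 2 groups of transcripts are described as such and not as phases.

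Levels are in TPM, a transcript abundance scaled by transcript length and by the total of the cell, and are compared as the mean of log2(TPM + 1). A gene is called detected in a cell above 1 TPM. The S score and the G2/M score of a cell are the means of log2(TPM + 1) over the 13 S genes and over the 23 G2/M genes. The 8 populations and their names are those of the study, which clustered these same cells with a filter against cell cycle effects. Even so, 3 of the 60 deposited marker genes of EC2 are cell cycle genes listed here, among them cenpf, which is part of the G2/M score. For every other population that number is 0, and cell cycle genes outside the lists were not looked for. A population's level weights the 2 stages equally, and a difference is that level minus the mean of the other 7 populations. Of the 27931 genes, 12002 were above 1 TPM in at least 10 cells, and all 36 matched cell cycle genes were among them.

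A cell had between 1845 and 7337 genes detected (median 5135). The median was lowest in tailbud cells (3960.5) and ranged from 5121.5 in venous cells to 5918 in macrophages among the other populations. Of 9 marker lists, 7 were highest in the population they name. The study described several of these populations by the same markers in these same cells, so the ranks do not test the names. The arterial list was highest in EC2 (8.41 against 7.88 in arterial cells). The pan-endothelial list, which names no single population, was highest in arterial cells. Tailbud markers were low even in tailbud cells, with a mean level of 1.25. The erythrocyte markers had a mean level of 3.33 in macrophages and 2.47 in EC2, and the macrophage markers one of 3.11 in erythrocytes. Doublets were not called here, and the part of other cells in the values below was not tested. Over all cells the number of genes detected correlated with the S score (Pearson r = 0.34) and with the G2/M score (r = 0.21), as a description over 96 cells that share 2 chips.

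Cell cycle transcripts were unevenly spread over the cells. pcna, the sliding clamp of DNA polymerase, was detected in 80 of 96 cells, rrm2, a subunit of ribonucleotide reductase, in 68, and plk1, a kinase of mitotic entry, in 64. At the other end, ccnb2, a B-type cyclin, and cdc45, a part of the replicative helicase, were each detected in 10 cells, and hmmr, a spindle protein, in 11. The remaining 30 genes lay between these. Where detected, these most widely detected genes had medians of 327 TPM for pcna, 262 TPM for rrm2 and 133 TPM for plk1. The lowest such medians were 5.70 TPM for hmmr, 19.6 TPM for bub1 and 21.9 TPM for mcm3. The highest single value was 4483 TPM for rrm2.

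Most cells held few G2/M transcripts. Of 96 cells, 46 had 3 or fewer of the 23 G2/M genes, 19 had 4 to 7, 11 had 8 to 11, 11 had 12 to 15 and 9 had 16 or more. S genes were spread more evenly, with 31 cells at 3 or fewer of 13, 29 cells at 4 to 6, 22 cells at 7 to 9 and 14 cells at 10 or more. The lowest, median and highest G2/M scores over all cells were 0.01, 0.80 and 7.03, and those of the S score were 0.05, 2.50 and 7.33.

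Erythrocytes and EC2, an endothelial population, stood out. In the 5 erythrocytes the G2/M score was 3.43, 3.56, 4.12, 4.53 and 6.07, and the S score lay between 4.02 and 7.33. In the 7 EC2 cells the G2/M score ran from 0.75 through a median of 5.47 to 7.03, with 5 cells at 3.84 or above and the other 2 at 0.75 and 2.17. Among the 6 other populations the medians of the G2/M score lay between 0.37 in macrophages and 1.15 in tailbud cells. All 5 erythrocytes thus had high G2/M scores, and EC2 had 5 high and 2 low cells. Of the 91 cells outside the erythrocytes, 12 reached the lowest erythrocyte G2/M score, of which 5 were EC2 cells, 3 tailbud, 2 epithelial, 1 venous and 1 macrophage. The mean G2/M score was 2.64 higher in erythrocytes and 3.21 higher in EC2 than the mean of the other 7 populations, and lower in the remaining 6, by between 0.62 in tailbud cells and 1.30 in arterial cells.

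The S score set the same populations apart less clearly. It was 2.26 higher in erythrocytes, 0.67 higher in EC2 and 0.32 higher in arterial cells than the mean of the others, and within 0.12 of it in epithelial and venous cells. The EC2 value rested on few cells, since with each of its cells left out in turn it ran from -0.305 to 1.64, depending on the cell. The arterial value was -0.005 without the gene that carried most of it. The S score was lower by 0.60 in EPC, the endothelial progenitor cells, by 1.09 in tailbud cells and by 1.76 in macrophages. S scores overlapped widely, since 22 of 91 other cells reached the lowest erythrocyte value of 4.02. Those cells came from all 7 populations. The 2 highest S scores outside erythrocytes were 7.23 in a tailbud cell and 7.03 in a venous cell, whose G2/M scores were 1.13 and 0.27.

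**Figure D1:**
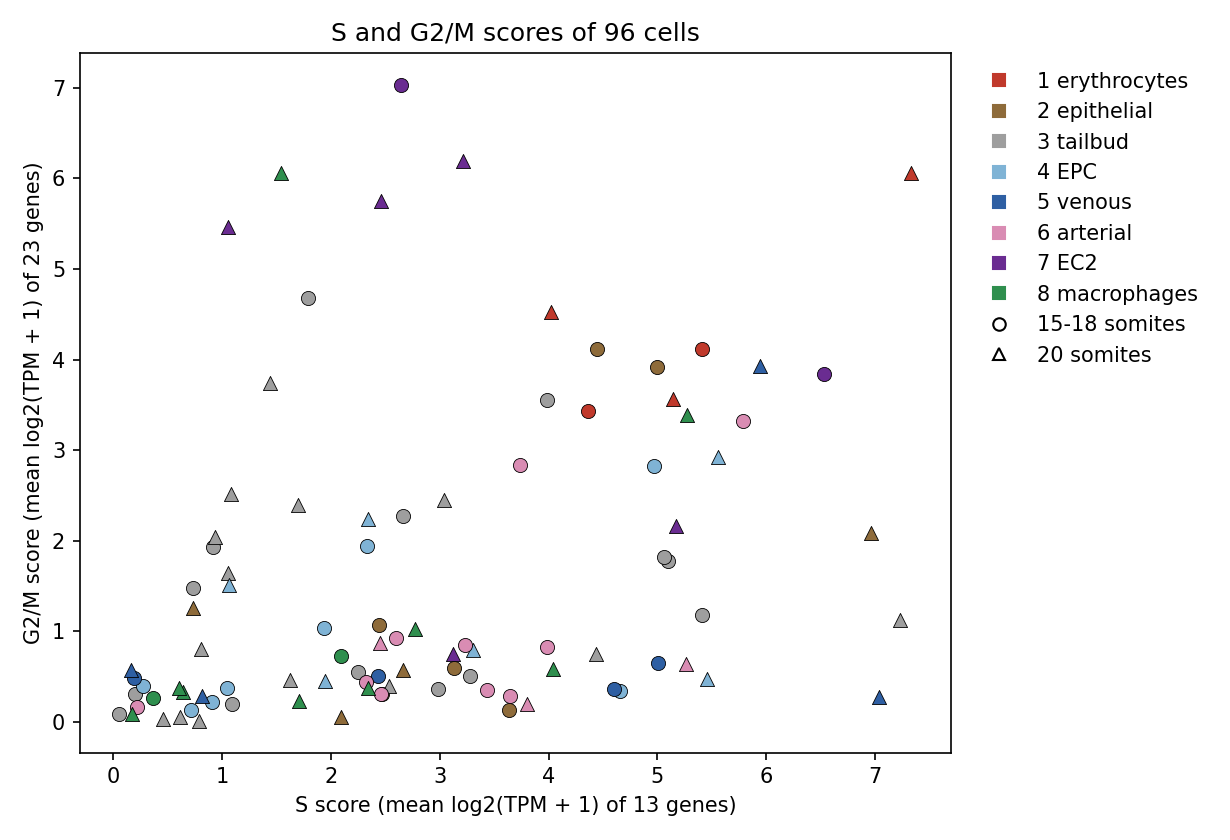
S score (x axis) and G2/M score (y axis) of each of the 96 cells, both as mean log2(TPM + 1); colour gives the population, circles 15-18 somites and triangles 20 somites. The 5 erythrocytes sit above 3.4 on the G2/M axis and above 4 on the S axis, while 4 EC2 cells lie high on the G2/M axis with S scores between 1.06 and 3.21.

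Counting genes in place of averaging them gave the make-up of each population. A cell was called S-high with at least 7 of the 13 S genes detected and G2/M-high with at least 12 of the 23 G2/M genes. These classes are ranges of a count, not cell types: 40 cells lay within 2 genes of the S limit and 9 within 2 genes of the G2/M limit. Intervals are exact 95% Clopper-Pearson intervals and cover the counting of cells only. Of the 96 cells, 53 were low in both, 23 were S-high only, 7 were G2/M-high only and 13 were high in both. In all, 20 cells were G2/M-high (20.8%, interval 13.2 to 30.3%) and 36 were S-high (37.5%, 27.8 to 48.0%).

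All 5 erythrocytes were high in both classes, which allows a share as low as 47.8%. Of the 7 EC2 cells, 5 were G2/M-high (71.4%, 29.0 to 96.3%), both cells at 15-18 somites and 3 of 5 at 20 somites. Only 2 of the 7 were S-high (28.6%, 3.67 to 71.0%). EC2 thus held 4 of the 7 cells that were G2/M-high only, beside 2 tailbud cells and 1 macrophage. In the 84 cells of the other 6 populations 10 were G2/M-high (11.9%, 5.86 to 20.8%). By population these were 2 of 10 epithelial cells, 3 of 28 tailbud cells, 1 of 8 venous cells, 2 of 13 arterial cells and 2 of 11 macrophages. None of the 14 EPC was G2/M-high, which allows a share of up to 21.4% as 3 counts of the total and up to 23.2% by the exact interval. The EPC share depended on the limit: with at least 8 of the 23 genes it was 28.6%, as in tailbud cells.

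S-high cells were found in every population. They were 5 of 10 epithelial cells (50%, 18.7 to 81.3%), 4 of 8 venous cells (50%, 15.7 to 84.3%) and 6 of 13 arterial cells (46.2%, 19.2 to 74.9%). The share was 5 of 14 in EPC (35.7%, 12.8 to 64.9%), 7 of 28 in tailbud cells (25.0%, 10.7 to 44.9%) and 2 of 11 in macrophages (18.2%, 2.28 to 51.8%). All of these intervals overlap, but that of erythrocytes (5 of 5, 47.8 to 100%) lay above that of tailbud cells. The arterial share was 15.4% with detection above 10 TPM and 92.3% with a limit of 5 genes. The number of genes detected moved with the classes: its median was 5968.5 in G2/M-high cells and 5033 in the rest, and 5675.5 in S-high cells and 4940.5 in the rest. The 3 G2/M-high tailbud cells went the other way, with 2330, 2861 and 3898 genes detected, so no tailbud cell was G2/M-high among those with at least 4000 genes. The part of depth in these shares was not tested.

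**Figure D2:**
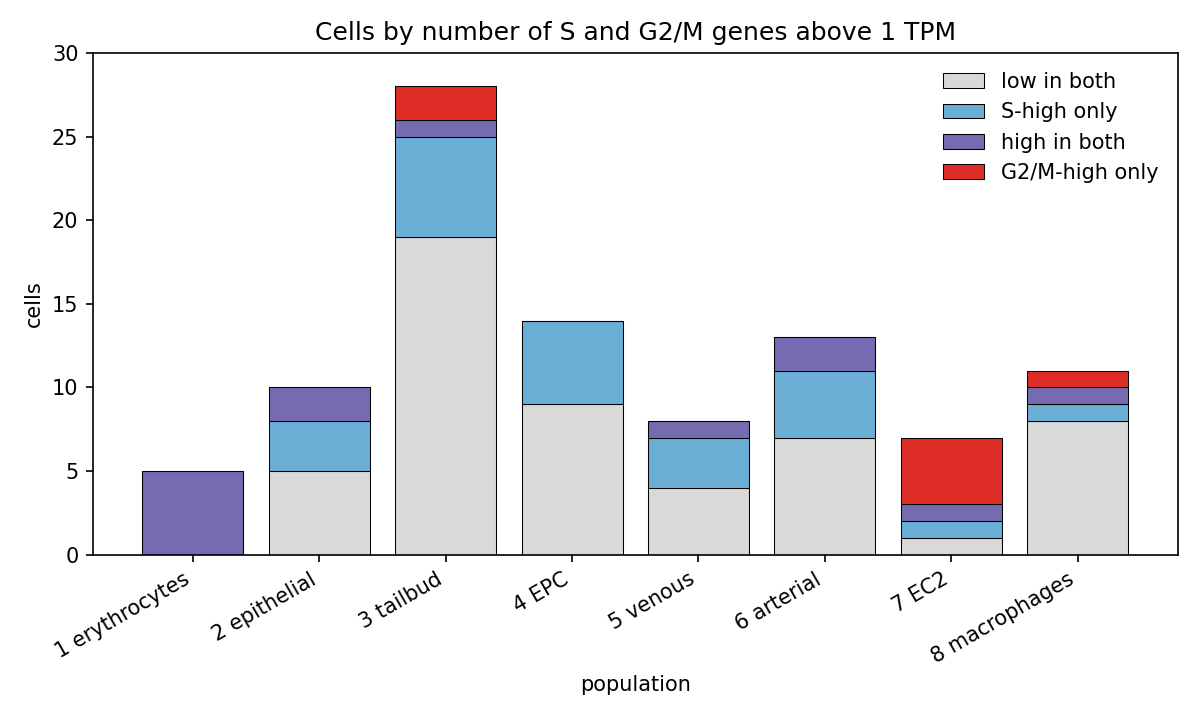
Number of cells (y axis) in each of the 8 populations (x axis), split by whether at least 7 of 13 S genes and at least 12 of 23 G2/M genes were above 1 TPM. All 5 erythrocytes are high in both, 4 of 7 EC2 cells are G2/M-high only, and no EPC reaches 12 G2/M genes.

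Gene by gene, 26 of the 36 cell cycle genes were at least 1 higher on the log2 scale in erythrocytes than the mean of the other 7 populations, where 25.4% of all 12002 genes were, and 1 was at least 1 lower, where 21.5% of all genes were. In EC2 28 of 36 were at least 1 higher, beside 24.7% of all genes, and 2 were at least 1 lower, beside 11.2%. The median difference of the 23 G2/M genes was 2.62 in erythrocytes and 3.32 in EC2, against medians over all genes of -0.21 and 0.14. That of the 13 S genes was 1.65 and 0.67. Both populations are small, with 5 and 7 cells, and 2 cells each at 15-18 somites. Every G2/M gene had its highest level in one of them, 8 in erythrocytes and 15 in EC2, and for 20 of 23 both together were the highest pair. Among S genes this held for 7 of 13. The matching shares over all genes are not given here, so these ranks describe the listed genes only.

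**Figure D3:**
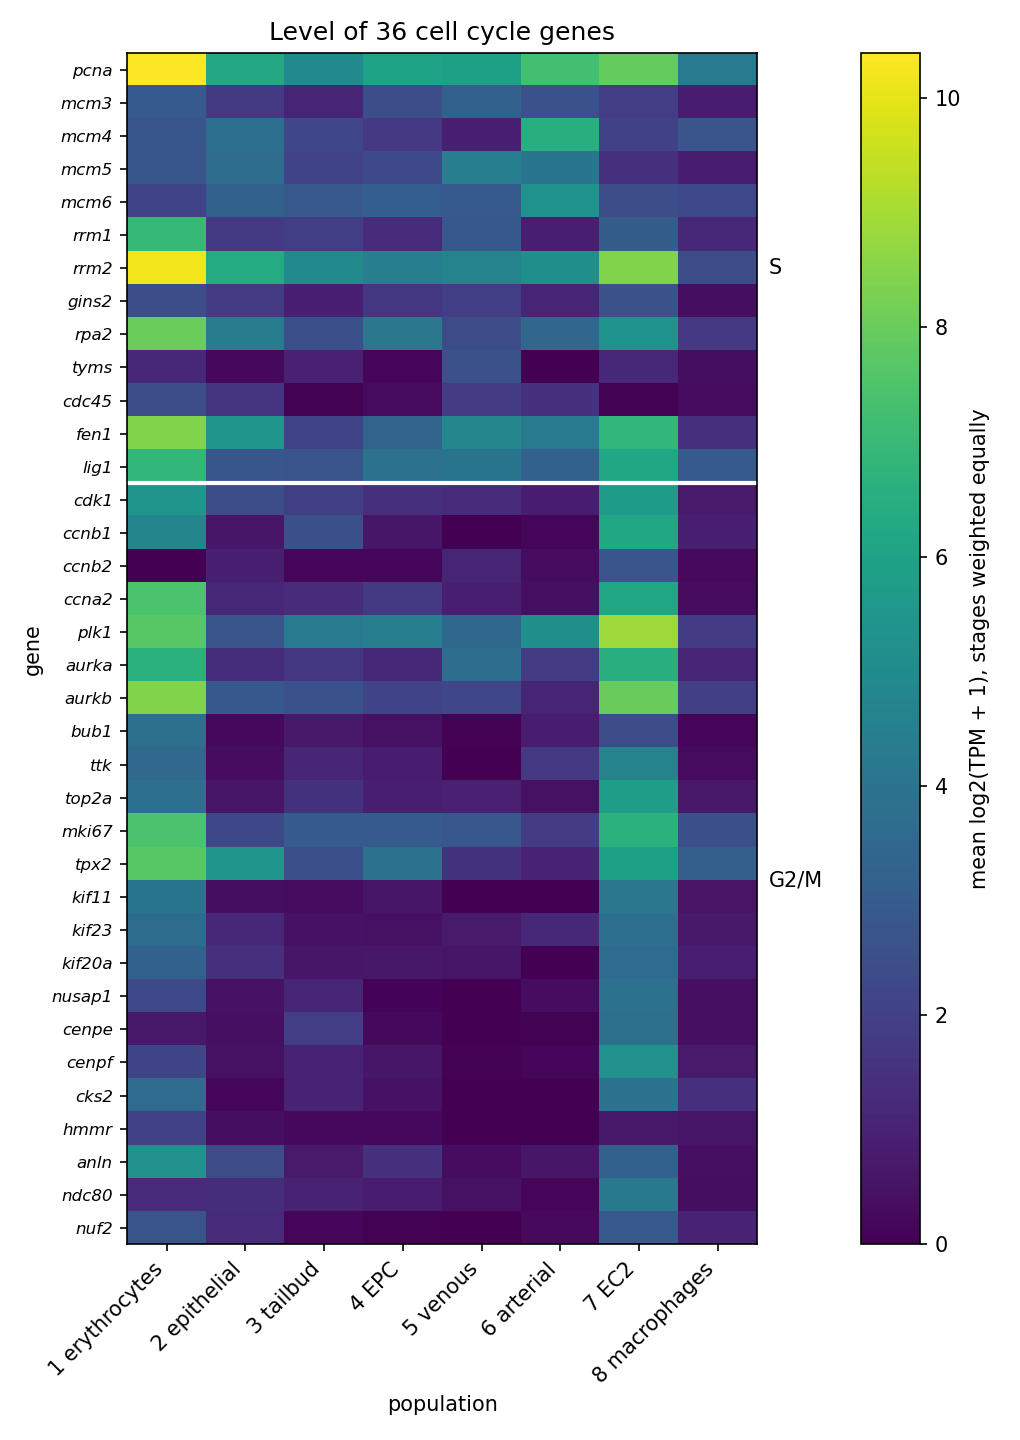
Level of the 36 matched cell cycle genes (rows, S genes above the white line and G2/M genes below) in the 8 populations (columns), as mean log2(TPM + 1) with both stages weighted equally. The columns of erythrocytes and EC2 are brightest for the G2/M genes, whereas mcm4 and mcm6 are brightest in arterial cells.

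cdk1, ccnb1 and ccna2 were detected in most cells of both populations. cdk1, the kinase that drives entry into mitosis, was at 0 and 69.7 TPM in the 2 erythrocytes of 15-18 somites and at 78.1, 140 and 970 TPM in the 3 of 20 somites. In EC2 it was at 0 and 1097 TPM at the earlier stage and at 0, 59.7, 118, 760 and 983 TPM at the later one. Elsewhere it was above 1 TPM in 24 of 84 cells, with a median at or below 0.36 TPM in each of the 6 populations. Its level was 5.43 in erythrocytes and 5.76 in EC2 against 0.74 to 2.46 in the others. Single cells overlapped, since 1 erythrocyte and 2 EC2 cells had no cdk1 and other populations reached 816 TPM.

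ccnb1, the cyclin B that activates cdk1, was detected in 5 of 5 erythrocytes, at 2.31 and 32.7 TPM at 15-18 somites and 16.02, 109 and 184 TPM at 20 somites. In EC2 it was at 150.5 and 160 TPM in the earlier cells and at 0, 4.46, 136, 146 and 597 TPM in the later ones. It was above 1 TPM in 18 of the 84 other cells, 10 of them tailbud cells, in which it reached 1068 TPM. It was at 0 in all 8 venous cells and above 1 TPM in 1 of 13 arterial cells (2.71 TPM). ccnb1 was 4.86 higher in EC2 than the mean of the others and 3.18 higher in erythrocytes.

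ccna2, cyclin A of S phase and G2, was highest in erythrocytes. Its values there were 182 and 860 TPM at 15-18 somites and 8.2, 198 and 267 TPM at 20 somites. EC2 held 268 and 520 TPM at the earlier stage, and at the later stage 3 cells were at 0 and the other 2 at 490 and 703 TPM. ccna2 was 5.75 higher in erythrocytes than the mean of the others, the largest difference of any of the 36 genes in any population. ccnb2, the other B-type cyclin, was at 0 in all 5 erythrocytes but was 2.34 higher in EC2 than the mean of the others. It was above 1 TPM in 3 of 7 EC2 cells, at 172, 2.97 and 129 TPM. In the other 84 cells it was detected in 7.

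aurkb, the kinase of the chromosomal passenger complex, had values of 236, 461, 153, 317 and 943 TPM in the 5 erythrocytes. In EC2 it was at 236 and 935 TPM and then at 0, 86.0, 652, 711 and 1255 TPM. Medians in the other 6 populations were below 2 TPM. Its difference was 5.45 in erythrocytes and 4.96 in EC2. aurka, the kinase of spindle poles, ranged from 24.1 through 120 to 197 TPM in erythrocytes and from 0 through 196 to 645 TPM in EC2, with levels of 6.64 and 6.53. The venous level of aurka was the next highest at 3.75.

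plk1 was the most widely detected of the 23 G2/M genes. It was detected in 5 of 5 erythrocytes, 7 of 7 EC2 cells, 11 of 13 arterial cells, 10 of 14 EPC and 19 of 28 tailbud cells, and in 52 of the 84 cells outside erythrocytes and EC2. All EC2 cells were at 100 TPM or above, at 270 and 603 TPM in the earlier and 100, 400, 443, 1366 and 1770 TPM in the later. The EC2 cell with the lowest G2/M score also held plk1. plk1 was 4.61 higher in EC2 and 3.28 higher in erythrocytes than the mean of the others, and its arterial level of 5.18 came next. Tailbud and EPC cells reached 2071 and 1426 TPM, so the ranges overlapped with EC2.

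mki67, the proliferation antigen Ki-67, which coats mitotic chromosomes, was at 85.1 to 240 TPM in all 5 erythrocytes. In EC2 it ran from 0.15 through 122 to 725 TPM. It was detected in 43 of the 84 other cells, whose medians per population lay between 0.15 TPM in arterial cells and 3.66 TPM in venous cells. top2a, the topoisomerase that untangles sister chromatids, was at 13.7 and 24.95 TPM in the earlier erythrocytes and at 0, 19.1 and 50.7 TPM in the later. EC2 cells were at 59.5 and 260 TPM, then at 0, 0, 172, 175 and 358 TPM. top2a was thus higher in each EC2 cell that had it than in any erythrocyte, and its levels were 5.83 and 3.81. It was detected in 16 of the 84 other cells.

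Many spindle and kinetochore genes were detected in few cells. kif11, the motor that pushes spindle poles apart, was detected in 3 of 5 erythrocytes and 4 of 7 EC2 cells but in 5 of the 84 other cells (5.95%), and in no venous or arterial cell. Its EC2 values were 0 and 358 TPM, then 0, 0, 11.7, 117 and 929 TPM. cenpf, a kinetochore protein, was at 42.7 and 190 TPM in the 2 earlier EC2 cells and at 0, 0, 9.14, 150 and 754 TPM in the later ones. In erythrocytes only 2 cells exceeded 1 TPM, at 35.6 and 153 TPM. The cenpf level was 5.27 in EC2 and 2.18 in erythrocytes. cenpf was also the only one of the 36 genes in the deposited marker table, as a marker of EC2, so its level there was among the values that described that population.

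cenpe, a kinetochore motor, separated the same pair further. It was above 1 TPM in 5 of 7 EC2 cells but in 1 of 5 erythrocytes, at 15.0 TPM, and its level was 3.84 against 0.72. ndc80, the gene of a kinetochore protein that binds microtubules, had levels of 4.19 in EC2 and 1.24 in erythrocytes, and nuf2, its partner, 2.92 and 2.70. tpx2, which activates aurora A on the spindle, went the other way with 7.69 in erythrocytes and 5.93 in EC2, and its epithelial level of 5.41 was close to that of EC2. anln, which encodes the cleavage furrow protein anillin, was at 5.24 in erythrocytes and 3.22 in EC2. bub1, a kinase of the spindle checkpoint, was at 3.83 and 2.42, and ttk, another checkpoint kinase, at 3.54 and 4.64. hmmr was past a difference of 1 in erythrocytes (1.73) but not in EC2 (0.21), where its highest value was 5.91 TPM.

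The remaining G2/M genes were at least 1 higher in both populations. kif23 and kif20a, motors of the central spindle, were at 3.66 and 3.23 in erythrocytes and at 3.78 and 3.62 in EC2. cks2, which encodes a small protein that binds Cdk1, was at 3.63 and 3.95 and was not above 1 TPM in any venous or arterial cell. nusap1, which binds spindle microtubules, was at 2.29 and 3.92. Each of these 4 was detected in 14 or fewer of the 84 other cells.

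rrm1 and rrm2 encode the large and the small subunit of ribonucleotide reductase, which makes deoxynucleotides. rrm1 was detected in 5 of 5 erythrocytes, at 97.7, 102, 108, 129 and 268 TPM, and in 26 of the 84 cells outside erythrocytes and EC2, and its erythrocyte level of 6.97 was 5.11 higher than the mean of the others. rrm2 was at 1037 and 4301 TPM in the earlier and at 347, 608 and 1204 TPM in the later erythrocytes. EC2 cells held 343 and 1001 TPM and then 1.68, 189, 466, 600 and 2319 TPM of rrm2, with detection in 7 of 7. rrm2 was 4.97 higher in erythrocytes and 2.97 higher in EC2 than the mean of the others.

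pcna was at 945 to 1788 TPM in the 5 erythrocytes, which was a tight band near the top of all cells. It ran from 1.19 through 457 to 2059 TPM in EC2 and from 2.04 through 512 to 1275 TPM in arterial cells, and was detected in all cells of both. The highest value, 3105 TPM, was in a venous cell. fen1, which trims Okazaki fragments, and lig1, which joins them, were at 8.43 and 6.86 in erythrocytes and at 6.89 and 6.18 in EC2. rpa2, a part of the complex that coats single-stranded DNA, was at 8.0 in erythrocytes and 5.31 in EC2. tyms, thymidylate synthase, was detected in 14 cells in all, 3 of them among the 8 venous cells, where its level of 2.57 was the highest. gins2, a part of the replicative helicase, was at 2.45 in erythrocytes and 2.57 in EC2 and at 1.94 or below elsewhere.

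The 4 matched mcm genes, which encode subunits of the helicase that opens DNA ahead of the polymerases, had their highest levels in other populations, mcm4 and mcm6 in arterial cells and mcm3 and mcm5 in venous cells. mcm4 was at 0 and 0.29 TPM in the earlier erythrocytes and at 0, 179.5 and 384 TPM in the later. In EC2 it was at 0 and 120 TPM, then at 0 in 4 cells and at 5.18 TPM in the last. In arterial cells it was detected in 9 of 13, and all 3 arterial cells of 20 somites were high, at 205, 495 and 1127 TPM. The arterial level of mcm4 was 6.52, 4.21 above the mean of the others. mcm6 was also highest in arterial cells, with a level of 5.33, and the 3 later cells held 12.04, 771 and 819 TPM.

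mcm5 was above 1 TPM in 2 of 5 erythrocytes, at 43.7 and 193 TPM, and in 1 of 7 EC2 cells, at 42.0 TPM. It was highest in venous cells (level 4.43), at 0.54, 13.4, 93.6 and 325 TPM at the earlier stage and 0, 0, 222 and 306 TPM at the later. mcm3 was highest in venous cells too, at 3.22, with erythrocytes next at 2.93. mcm5 was 1.47 lower in EC2 than the mean of the others, and mcm6 was 1.08 lower in erythrocytes, the only gene that low there. cdc45, which works with the same helicase, did not exceed 1 TPM in any of the 7 EC2 cells, where its highest value was 0.45 TPM, and it was 1.09 lower. In erythrocytes it was above 1 TPM in 2 of 5 cells and 1.65 higher.

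The 6 other populations had lower G2/M scores than the mean of the other 7, which for each of them includes erythrocytes and EC2. In venous cells 19 of the 36 genes were at least 1 lower, beside 13.9% of all genes, and 16 of these were G2/M genes. The lowest were tpx2 (-2.70), ccnb1 (-2.27) and mcm4 (-2.18), and 10 of the 23 G2/M genes exceeded 1 TPM in no venous cell. That number was 4 in arterial cells, 2 in EPC, 1 in erythrocytes and 0 in epithelial, tailbud, EC2 and macrophage cells. The share over all genes is not given here, and a gene detected in few cells can be missed in only 8 venous cells. The 3 genes at least 1 higher in venous cells, beside 15.1% of all genes, were the S genes tyms, mcm5 and mcm3. In arterial cells 16 genes were at least 1 lower, beside 14.2%, led by tpx2 (-3.29), aurkb (-2.94) and ccna2 (-2.31). The 3 that were at least 1 higher, beside 15.5%, were mcm4, mcm6 and mcm5. The S scores of venous and arterial cells were 0.07 and 0.32 above the mean of the others, while their G2/M scores were below it. Epithelial cells had the same signs (0.12 above and 0.68 below). The G2/M mean of the others includes erythrocytes (4.25) and EC2 (4.75). Venous and arterial G2/M scores were 0.88 and 0.80, beside 0.94 to 1.40 in macrophages, EPC, epithelial and tailbud cells.

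In EPC 12 genes were at least 1 lower, beside 8.01% of all genes, and none was at least 1 higher, beside 13.1%. aurka (-2.11), aurkb (-1.77) and rrm2 (-1.60) were the lowest there. For EPC and for macrophages the mean of the others includes erythrocytes and EC2, where rrm2 was at 10.18 and 8.43. In macrophages 20 genes were at least 1 lower, beside 16% of all genes, and none at least 1 higher, beside 22.6%, with rrm2 at -3.91, fen1 at -3.66 and plk1 at -3.38. Macrophages had the lowest level of 7 of the 13 S genes, a rank whose share over all genes is not given here. The 2 G2/M-high macrophages, both at 20 somites, were the exception. They had 21 and 17 of the 23 G2/M genes detected and G2/M scores of 6.06 and 3.39. Their numbers of genes detected were 6907 and 7098, against a macrophage median of 5918, and the part of depth was not tested.

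In epithelial cells 10 genes were at least 1 lower, beside 17.6%, and plk1 (-2.41), aurka (-1.86) and mki67 (-1.62) came first. tpx2 (1.74), mcm5 (1.15) and mcm4 (1.10) were at least 1 higher, beside 13.8%. In tailbud cells 13 genes were at least 1 lower, beside 29.2% of all genes, led by fen1 (-2.81), pcna (-1.93) and rpa2 (-1.65). cenpe was at least 1 higher there (1.08), beside 0.517% of all genes. For epithelial and tailbud cells too, the mean of the others includes erythrocytes and EC2. Tailbud cells also had the lowest median number of genes detected (3960.5), and the part of that in the cell cycle values was not tested.

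Between the stages the genes differed little on average. Taken within each population and averaged over the 8, 1 of the 36 genes was at least 1 higher at 20 somites, beside 3.85% of all genes, and none was at least 1 lower, beside 4.6%. The median difference was 0.23 over S genes, 0.07 over G2/M genes and 0.00 over all genes. The one past a difference of 1 was mcm4 (1.15), which was higher at 20 somites in 5 populations, by 5.18 in erythrocytes and 4.81 in arterial cells, and lower in 3, by 2.93 in EC2. It lost that place when all cells of a stage were pooled and with a pseudocount of 10. The next largest were hmmr (0.90), nuf2 (0.89) and, in the other direction, lig1 (-0.93) and mcm5 (-0.81).

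Within populations the stages differed by more, and in both directions. The mean G2/M score was 0.94 higher at 20 somites in erythrocytes and 0.88 higher in macrophages. It was 1.37 lower in EC2 and 0.70 lower in epithelial cells. The medians, earlier stage first, were 3.78 and 4.53 in erythrocytes (2 and 3 cells). In macrophages they were 0.50 and 0.37 (2 and 9 cells). In EC2 they were 5.44 and 5.47 (2 and 5 cells), and in epithelial cells 0.84 and 0.91 (6 and 4 cells). Among these, only the erythrocyte median moved in the direction of its mean. The mean S score was 1.18 higher at 20 somites in EPC and 0.89 higher in macrophages, and 1.58 lower in EC2. Over all cells the share of G2/M-high cells was the same at both stages, 10 of 48 (20.8%, 10.5 to 35.0%). With a limit of 16 in place of 12 genes the shares were 2.08% at 15-18 somites and 16.7% at 20 somites, so the equality held at the first limit and not at the second. S-high cells were 20 of 48 at 15-18 somites (41.7%, 27.6 to 56.8%) and 16 of 48 at 20 somites (33.3%, 20.4 to 48.4%), with overlapping intervals.

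**Figure D4:**
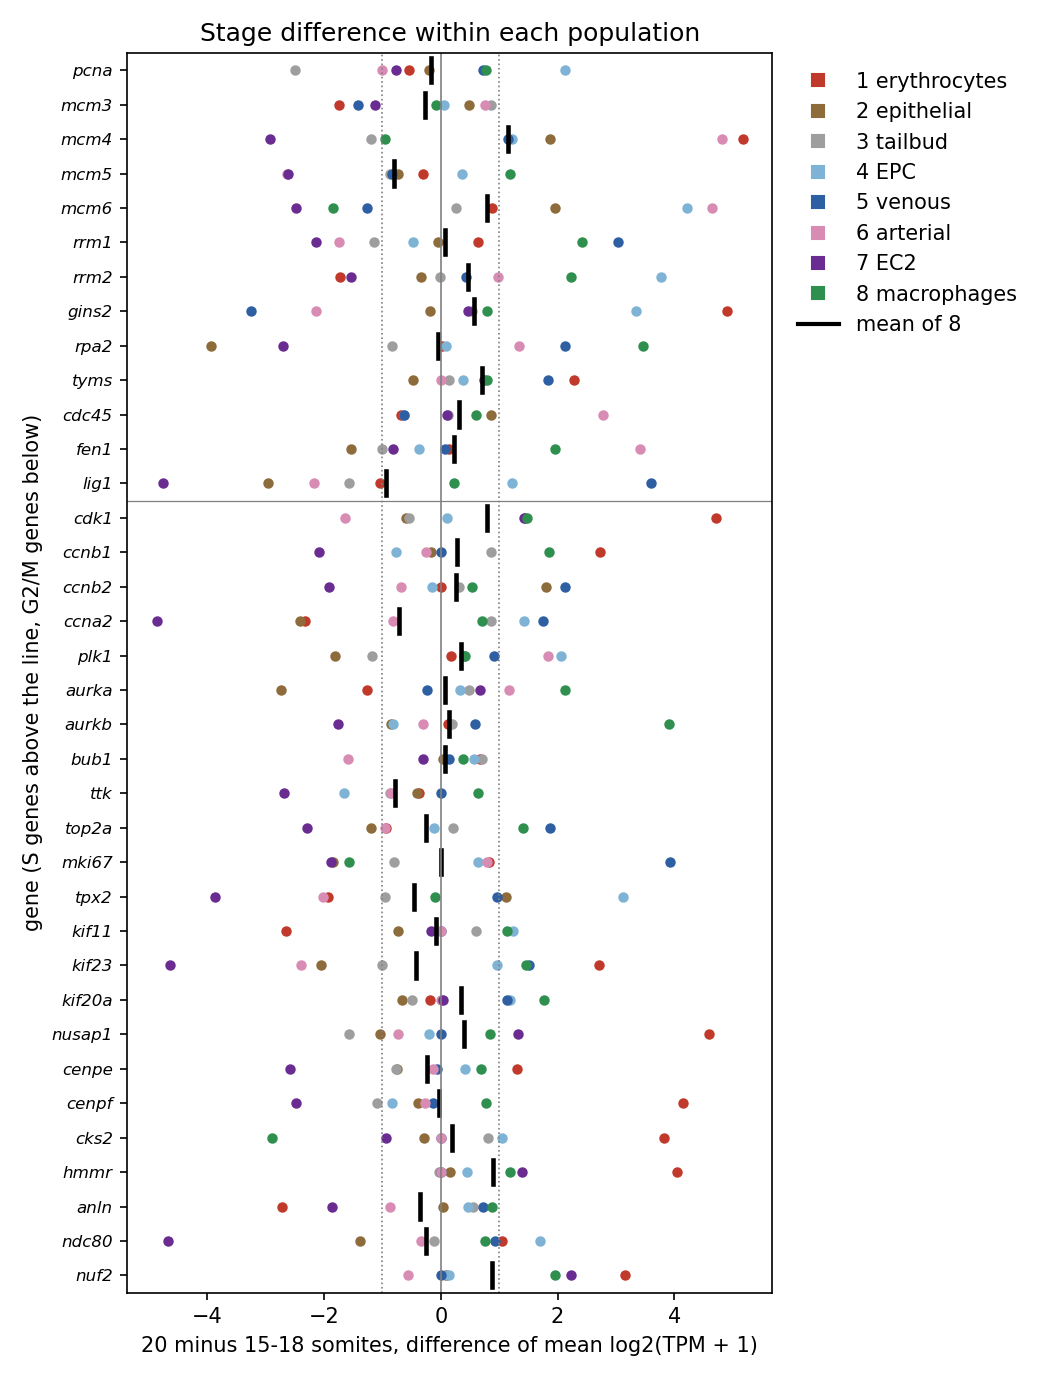
Difference of mean log2(TPM + 1) between 20 and 15-18 somites (x axis) for each of the 36 genes (rows) within each population (coloured points) and averaged over the 8 (black bars); dotted lines mark a difference of 1 in either direction. Points scatter to both sides of 0 for most genes, and only the bar of mcm4, at 1.15, lies beyond a dotted line.

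From cell to cell, S genes varied with S genes and G2/M genes with G2/M genes. After the mean of each population and stage was subtracted, the median Pearson r over 96 cells was 0.29 for the 78 pairs of S genes and 0.29 for the 253 pairs of G2/M genes. It was 0.05 for the 299 pairs of 1 S gene and 1 G2/M gene, and 0.015 over all pairs of the 12002 genes. These correlations are descriptions over cells that share 2 chips. Over 0.3 were 38 of 78 S pairs, 117 of 253 G2/M pairs and 15 of 299 mixed pairs.

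cdk1 was the most tied to the other G2/M genes, with r = 0.77 to the mean of the other 22. Its closest partners were top2a (0.68), tpx2 (0.63), ttk (0.57) and ndc80 (0.56), and kif11 and nuf2 formed another close pair (0.68). cks2 and aurka were the least tied to the rest (0.27 and 0.28). Among S genes pcna was the most tied to the mean of the other 12 (0.71), followed by rrm1 (0.65), and cdc45 the least (0.19). rrm1 and rrm2, whose products form 1 enzyme, were the closest S pair (0.52). The 4 mcm genes were correlated among themselves, with r between 0.33 and 0.50 in their 6 pairs.

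rrm2 was the S gene that crossed between the groups. It made 7 of the 15 mixed pairs over 0.3, the highest with aurkb (0.44), cdk1 (0.43) and plk1 (0.41), and its median r with the 23 G2/M genes was 0.22. For mcm3, mcm4, mcm6 and gins2 that median was between -0.05 and -0.01. The lowest of all pairs were gins2 with cks2 and with top2a, both at -0.20.

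**Figure D5:**
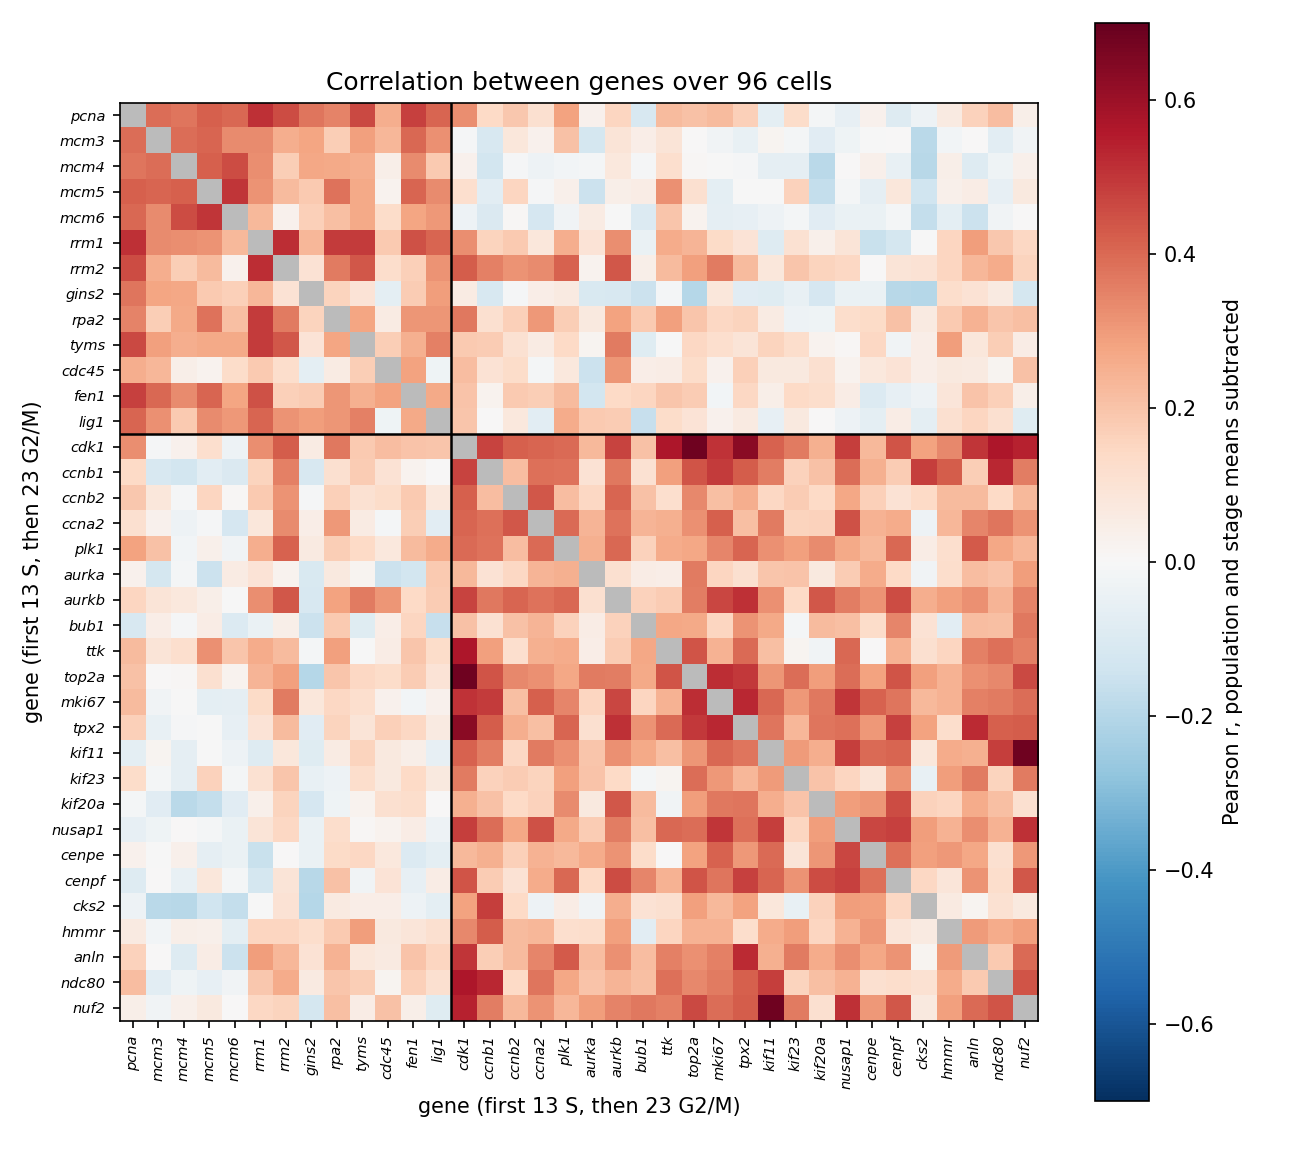
Pearson r (colour) between each pair of the 36 genes over 96 cells after population and stage means were subtracted; both axes list the 13 S genes and then the 23 G2/M genes, black lines divide them, and grey squares are a gene with itself. The 2 blocks on the diagonal are mostly red, with cdk1 and top2a at 0.68, and the blocks off the diagonal are pale, apart from part of the rrm2 row.

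Genes outside the 44 listed ones were ranked by their correlation with each score in the same way. For the G2/M score the first 5 were MAD2L1, a spindle checkpoint protein (r = 0.82, detected in 43 cells), KPNA2, a nuclear import receptor (0.67), dlgap5, which binds spindle microtubules (0.65), and a pair of genes without a symbol (0.74 and 0.64). MAD2L1 was at 7.99 in erythrocytes and 8.13 in EC2, and at 0.94 to 3.49 elsewhere. For the S score they were adssl, named for an enzyme of adenine nucleotide synthesis (0.64), POLA2, a subunit of DNA polymerase alpha (0.62), CHAF1B, which loads histones behind the fork (0.61), and 2 genes without a symbol (0.66 and 0.65).

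Further cell cycle genes were listed by function, 66 in all, of which 48 were matched and 44 passed the same filter. How many of the 44 passed it only through erythrocytes or EC2 was not counted. In erythrocytes 30 of the 44 were at least 1 higher than the mean of the other populations, beside 25.4% of all genes, and 3 were at least 1 lower, beside 21.5%. In EC2 22 were higher, beside 24.7%, and 4 lower, beside 11.2%. In the rest the number that was higher lay between 1 in tailbud cells, beside 0.517% of all genes, and 7 in epithelial cells, beside 13.8%. The number that was lower lay between 7 in epithelial cells, beside 17.6%, and 20 in macrophages, beside 16%. Of 16 further genes of mitosis, 14 were at least 1 higher in erythrocytes and 14 in EC2. In EC2 the largest were spc24, a kinetochore gene (6.27), cdca8, of the chromosomal passenger complex (5.48), mad2l1 (5.21) and kif2c, a kinesin that takes microtubules apart (4.99), of which spc24 and cdca8 are markers of EC2 in the deposited table. tacc3 (4.46), smc2 (3.58), ect2 (3.28), ncapg (3.04), smc4 (3.03), cdc25b (2.02), espl1 (2.0), pkmyt1 (1.58), racgap1 (1.16) and pttg1 (1.04) followed. In erythrocytes mad2l1 (5.05), racgap1, a partner of kif23 in cytokinesis (4.72), spc25, which pairs with spc24 (4.56), and smc4, a condensin subunit (4.18), were the largest. After them came smc2 (3.82), espl1 (3.80), ncapg (3.57), kif2c (3.43), tacc3 (2.88), spc24 (2.02), ect2 (2.0), cdc25b (1.78), cdca8 (1.73) and wee1 (1.02). The level of wee1 was higher still in macrophages (4.69 against 3.86). pttg1, securin, was 1.43 lower in erythrocytes.

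Genes before and during S phase were less uniform. Of 8 replication and chromatin assembly genes 5 were at least 1 higher in each population, beside 25.4% of all genes in erythrocytes and 24.7% in EC2, and dhfr, which supplies folate for thymidine synthesis, was among the highest in both, by 4.06 in erythrocytes and 2.99 in EC2. dnmt1, the maintenance DNA methyltransferase, was also higher in both (1.03 and 1.61). chaf1a (3.93), pold1 (1.24) and pole (1.06) were higher in erythrocytes, although pold1 was highest in venous cells (level 4.01 against 3.10). In EC2 pola1 (2.52), prim1 (1.15) and chaf1b (1.02) were higher, and pola1 was 1.03 lower in erythrocytes. Of 7 licensing genes, which prepare origins, 4 were higher in erythrocytes, orc6 (3.25), cdc7 (3.07), cdt1 (2.18) and mcm10 (1.76). orc6 alone was higher in EC2 (1.13), beside the same shares of all genes, and its level there was below the epithelial one (2.57 against 2.84). Of 2 G1 kinases that passed the filter, cdk2 was 2.30 higher in erythrocytes and cdk6 2.01 higher in EC2, beside the same shares. The level of cdk2 was higher still in epithelial cells (6.12 against 4.76). cdk6 was at least 1 higher in arterial cells too (level 3.30 against 3.89 in EC2). Of 6 Rb and E2F genes, 2 were at least 1 higher in erythrocytes, e2f7 (1.96) and e2f3 (1.80), beside 25.4% of all genes. The level of e2f3 was higher still in arterial cells (3.99 against 3.50). In EC2 1 of the 6 was higher, rb1 (1.67), beside 24.7%, and 1 lower, rbl1 (-1.61), beside 11.2%.

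Of a further list, the Cdk inhibitors cdkn1a and cdkn1ca, with mdm2 and ccng1, had the following values. In erythrocytes mdm2, which encodes a ubiquitin ligase (2.63), cdkn1a, which encodes the Cdk inhibitor p21 (2.31), and ccng1, cyclin G1 (1.28), were at least 1 higher. cdkn1ca, a further Cdk inhibitor, was 1.73 lower. Of all genes, 25.4% were at least 1 higher there and 21.5% at least 1 lower. In EC2 none of these 4 was at least 1 higher, beside 24.7% of all genes. ccng1 (-2.56) and mdm2 (-2.30) were at least 1 lower there, beside 11.2%. Their levels in erythrocytes and EC2 were 4.98 and 0.66 for mdm2 and 8.64 and 5.28 for ccng1. In EPC mdm2, cdkn1ca and ccng1 were at least 1 higher, beside 13.1% of all genes. Epithelial cells had cdkn1a, cdkn1ca and ccng1 at least 1 higher, beside 13.8%, and mdm2 at least 1 lower, beside 17.6%. The ccng1 level was 8.65 in EPC and 8.58 in epithelial cells, near that of erythrocytes. In venous cells mdm2, cdkn1a, cdkn1ca and ccng1 were at least 1 lower, beside 13.9%. Arterial cells had mdm2 at least 1 lower, beside 14.2%. Macrophages had mdm2 at least 1 higher, beside 22.6%, and cdkn1a at least 1 lower, beside 16%. The mdm2 level was 4.22 in EPC, 3.58 in macrophages and 3.41 in tailbud cells, and 1.80 or below in epithelial, venous and arterial cells. Of the 44 further genes, 3 were at least 1 higher at 20 somites, beside 3.85% of all genes, and 2 at least 1 lower, beside 4.6%. The share that was lower is close to that of all genes, and the share that was higher is above it, on 3 genes. orc1 (1.42) and cdc6 (1.29) were among the higher ones, and cdkn1ca (-1.39) and wee1 (-1.05) were the lower ones.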

How the data were processed

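Zebrafish etv2:GFP-positive cells were profiled by single-cell RNA-seq on Fluidigm C1 chips, 1 sample of 48 cells per stage. The authors quantified reads against Ensembl release 72 of the Zv9 assembly with kallisto inside AltAnalyze and deposited 1 TPM value per gene and cell; the kallisto version is not given in the sources used here. Every cell sums to 1000000 TPM, so TPM keeps no depth, and the number of genes detected is given in its place. A value of 0 does not show absence. Populations were taken from the authors' deposited groups, a column of group numbers, which was made by clustering the same cells. Deposited columns of marker statistics were used only for gene symbols and for membership of the marker table.

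Symbols were taken from the deposited marker table and then from a table of gene names (20017 of 27931 identifiers, 71.7%) and matched in any case. mcm6 and rrm2 each had 2 identifiers, whose TPM were summed. Values were analysed as log2(TPM + 1), a pseudocount of 1, in Python 3.11.15 with pandas 2.3.3, numpy 2.4.6 and scipy 1.17.1, after the steps had been tested on simulated data. A gene was past the fold at a difference of 1 on the log2 scale, which understates changes of low genes. With 1 sample per stage no test was run. The gene lists were chosen with earlier results of these data known. With values are named the 3 genes farthest past the fold in each direction and population, a list of main S and G2/M genes, the 5 other genes most correlated with each score, and further cell cycle genes past the fold in erythrocytes, EC2 or between stages; other genes are named to account for all members. No per-sample column was left unused. A planned count of promoter motifs was not run, because no promoter sequence was used here. Alternatives tried were other pseudocounts, filters, detection minimums and class limits, ranks, pooled stages, deeper cells only, and genes or cells left out. One further cell cycle gene is counted among those listed but not reported here.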

Additional observations from a re-analysis of the deposited data

Results flagged for a closer look

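The S score of 3 populations lay on opposite sides of the mean of the other 7 at the 2 stages, out of 16 combinations of score and population compared. In EC2 the S score was 1.66 above the others at 15-18 somites and 0.33 below them at 20 somites, a change of -1.99, with 2 and 5 cells. In epithelial cells it went from 0.44 above to 0.20 below, a change of -0.64. In venous cells it went from 0.08 below to 0.22 above, a change of 0.31. These differences between stages were not tested, since each stage is 1 sample. The G2/M score kept its side in all 8 populations.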

How the results depend on the processing

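The G2/M score of erythrocytes minus the others was 4.07 with a pseudocount of 0.1 and 1.36 with one of 10. That of EC2 moved in the same way, to 4.60 and 1.84, but within the wider spread over its cells. Without each cell in turn the erythrocyte value lay between 2.30 and 2.93, and that of EC2 between 2.41 and 4.01 (chosen after seeing the data, as were the scores without mcm6 and rrm2 and without cenpf). The S score of EC2 ran from -0.305 to 1.64 in the same way, and that of erythrocytes from 1.80 to 2.63. S scores near the mean of the others changed sign in epithelial cells with a pseudocount of 10 (-0.008), in venous cells with deeper cells only (-0.056) or each gene left out (lowest -0.09), and in arterial cells with each gene left out (lowest -0.005). Genes at least 1 lower numbered 20 in tailbud cells and 20 in EPC with a pseudocount of 0.1, and 2 and 3 with one of 10, which also gave 2 in epithelial cells, 5 in venous cells, 7 in arterial cells and 10 in macrophages. With class limits of 5 S or 8 G2/M genes, of 9 or 16 genes, and of a score above its median, S-high cells were 64.6%, 22.9% and 50%, and G2/M-high cells 32.3%, 9.38% and 50%. In erythrocytes S-high cells were 40% at 9 genes and 20% by the larger standardised score, and in EC2 85.7% at 5 genes and 71.4% above the median. With a score above its median G2/M-high EPC were 42.9%. With detection above 10 TPM, G2/M-high cells were 14.6% and S-high cells 29.2% of all cells, and no arterial cell was G2/M-high. Genes at least 1 higher at 20 somites numbered 4 with a pseudocount of 0.1, 0 with one of 10 and 0 with stages pooled, and genes at least 1 lower numbered 3 with a pseudocount of 0.1 and 1 with stages pooled. The median r between S and G2/M genes was 0.11 when population and stage means were kept, and 3 of the 5 genes most like the S score stayed among them. Of the values of main results 179 moved by less than the spread over cells, the interval of a share or 1.5 times a count. The causes were not tested. No paired analysis was possible because each stage is 1 sample. The promoter motif count was not run.

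Few cells limit these values: erythrocytes and EC2 rest on 5 and 7 cells. TPM keeps no depth, so the lowest level each cell was able to show is unknown.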
